A study of Mus musculus with 16 samples.

Results

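The replication-dependent histone genes are the 69 genes of the deposited table, of 24978 in all, whose symbols begin with Hist1h, Hist2h, Hist3h or Hist4h. Where a symbol had several rows, the row spanning the most bases was used. Of the 69, 55 lie in the Hist1 cluster on chromosome 13, 10 in Hist2 on chromosome 3, 3 in Hist3 on chromosome 11 and 1 in Hist4 on chromosome 6. By type they comprise 6 linker histone H1 genes, 19 H2A, 19 H2B, 12 H3 and 13 H4 genes, the few symbols marked as pseudogenes included.

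Nascent RNA was measured by Bru-seq in 16 libraries of mouse embryonic stem cells grown in DMEM with 2i and LIF. In this assay cells take up bromouridine (here 2 mM for 30 min), and an antibody pulls down the RNA made during that time, which is then sequenced. All libraries are labelled as a hybrid of castaneus (cast) and 129, in which a chromosome pair has a copy from each strain. Not every library kept this balance: over genes of chromosome 3, which holds Hist2, the median cast share was 67.1% in c.del replicate 1 and 64.8% in ac.del, and 46.3% to 47.8% in the other 14 libraries. F121-9 is the parental line, with 2 libraries and no edit named, and abc.del, ab.del and c.del also had 2 libraries each. The codes a.del, b.del, ac.del, bc.del, 680kinv, 100kdel, 245kdel and 4k.b.c had 1 library each. Codes ending in del were read as deletions of the lettered sites they name, which in the study are elements of the Dppa2 and Dppa4 domain; which allele carries an edit is not used here. The suffixes that follow these codes differ between libraries of 1 group and may name clones. The labels do not say that the libraries were separate cultures, and the p-values reflect only how these libraries varied, which may be technical. Sample numbers form 2 runs of 8 libraries, called the first and the second deposit block, and what the runs stand for is not in the labels. The first block holds 680kinv, both abc.del, ab.del replicate 1, bc.del, c.del replicate 1 and both F121-9 libraries. The second holds 100kdel, 245kdel, 4k.b.c, ab.del replicate 2, ac.del, a.del, b.del and c.del replicate 2.

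Replication-dependent histone genes encode the core histones H2A, H2B, H3 and H4, around which DNA is wrapped, and the H1 histones, which bind the DNA between nucleosomes. Cells transcribe them mainly in S phase, when newly made DNA has to be packaged. They lack introns, and their transcripts end not in a poly(A) tail but in a conserved stem-loop, which the protein Slbp binds and behind which the transcript is cut. Transcription and cutting take place in the histone locus body, which Npat organises.

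The stem-loop sets where the mature transcript ends, so its sequence is shown here against the rows that were counted. In GENCODE transcripts of GRCm38, 42 of the 69 genes held a match to the consensus of the histone 3′ stem-loop in a search of the same strand, against 0.0353% of 141767 transcripts. The examples are the most common form (26 genes), the form with another loop (6 genes) and the form most common among H4 genes (7 genes). Capitals mark the 4-base loop between the arms of the stem.
Hist1h1c: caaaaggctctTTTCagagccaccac
Hist1h2bb: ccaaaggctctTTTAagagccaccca
Hist1h4c: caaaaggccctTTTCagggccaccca
The stems lie on GRCm38 at chr13:23739512-23739527 on the plus strand, chr13:23747203-23747218 on the plus strand and chr13:23698089-23698104 on the minus strand. In the 11 tested genes with a match, the stem-loop lay 4 to 5 bases before the end of the shortest deposited row. Such a row counts RNA up to the stem-loop and not beyond it.

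A promoter window of 250 bases before the RefSeq start (GRCm38.p6) was found for 58 of the 69 genes, under current or older symbols. The window of Hist1h1a is printed because this gene carried most of the H1 reads, and the stretch between Hist1h2ak and Hist1h2bn because these genes are divergent neighbours that share it. Capitals mark TATAAA and CCAAT (or ATTGG, its other strand).
Hist1h1a: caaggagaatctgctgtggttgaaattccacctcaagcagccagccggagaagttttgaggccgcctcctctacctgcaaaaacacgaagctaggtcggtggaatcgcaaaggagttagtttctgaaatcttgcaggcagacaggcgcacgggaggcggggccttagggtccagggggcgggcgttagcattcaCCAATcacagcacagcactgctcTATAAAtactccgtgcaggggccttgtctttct
Hist1h2ak to Hist1h2bn: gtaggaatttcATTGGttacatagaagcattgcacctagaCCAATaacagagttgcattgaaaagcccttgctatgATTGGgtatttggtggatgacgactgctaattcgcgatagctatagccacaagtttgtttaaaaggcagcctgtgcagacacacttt
The windows are chr13:23763418-23763667 and chr13:21753913-21754075, both read on the plus strand. CCAAT stood 56 bases and TATAAA 33 bases before the Hist1h1a start. Searched on both strands, CCAAT was in 49 of the 58 windows against 33.8% of 32851 windows of all genes, and TATAAA in 28 of 58 against 12.4%. All 17 H2A and all 15 H2B windows held CCAAT, as did 6 of 6 H1 and 8 of 9 H3, but 3 of 11 H4 windows. The octamer ATTTGCAT, which Oct proteins bind, was in 7 H2A and 6 H2B windows and in no window of another type, against 1.6% of all windows. The H1 box AAACACA was in 5 of 6 H1 windows and 9 of 58 in all, against 6.25%; Hist1h1a was the H1 gene without it. Windows of close neighbours overlap and can reach into the next gene, so the same match can count for both genes. The Hist1h2bn window held TATAAA, for example, but the printed stretch up to Hist1h2ak does not. Hist1h2ao and Hist1h2ap had the same RefSeq start and thus the same window. A match is a description of letters in the window and not a measured binding site.

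Levels are CPM, allele-assigned reads per 1000000 counted in a column, as the mean of the 129 and the cast value. Allele-assigned reads per library, 1 row per gene, ranged from 8.96 M to 32.0 M (M for 1000000 reads), of which 205 to 2326 lay in histone genes. A floor of 3 reads in 1 allele's column corresponded to 0.0833 to 0.329 CPM. Only reads that cover a base differing between the strains and that reached the mapping quality of 10 named in the file header could be counted. Near-identical histone copies can lose or share reads under such a rule, so values of single genes are uncertain where copies are alike, and levels per length depend on how many differing bases a gene has. The pluripotency markers Pou5f1, Sox2 and Nanog, which define the labelled cell type, had reads in both blocks, and the 12 listed markers summed to 1623 to 2301 CPM. Of 10 fibroblast markers 8 were too low to test and Twist1 was at 0; their sum was 2.44 to 10.3 CPM. The 9 primitive endoderm markers summed to 70.1 to 243 CPM and the 7 primed epiblast markers to 15.7 to 153 CPM. Markers of 2-cell-like cells summed to 0 to 6.53 CPM, with Zscan4c, Zscan4f, Tcstv1 and Gm4340 at 0.

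Of the 69 genes, 33 (47.8%) were listed at 0 in all 32 columns, against 72.5% of the 2861 other genes that span under 1000 bases. The longest unbroken run of neighbours at 0 held 14 genes, from Hist1h4h to Hist1h4d on chr13:23531044-23581969. The Hist2 cluster had 5 reads in all libraries together, Hist3 had 13 and Hist4 had 18. Another 16 genes had 2 to 110 reads and fell under the mean of 0.2 CPM set for tests. The 20 tested genes were all in Hist1, with 154 to 8910 reads each. They were 4 of 6 H1, 2 of 19 H2A, 8 of 19 H2B, 3 of 12 H3 and 3 of 13 H4 genes. The testis-type genes at one end of the cluster were among those below the limit. Hist1h2ba, a testis H2B gene outside the rule for naming and chosen after its values were seen, had 30 reads; it stood at 0.448 CPM in 100kdel, 0.345 in 245kdel and 0.120 in c.del replicate 2, and at 0.0484 or less in the other libraries.

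H1 genes held 60.2% of the 20438 histone reads, H2B genes 17.6%, H2A 8.58%, H4 7.87% and H3 5.73%. Hist1h1a, the gene of linker histone H1.1, alone held 43.6%. Per kilobase of row, Hist1h1a was highest at 21.9 CPM, followed by the H2B gene Hist1h2bb (4.12), the H4 gene Hist1h4b (3.18), the linker histone gene Hist1h1e (2.98) and the H2A gene Hist1h2ab (2.80). Hist1h1a thus stood apart, while the 4 that followed lay between 2.80 and 4.12 CPM per kilobase. Among the genes with a mean of at least 1 CPM, Hist1h1c, Hist1h2ak and Hist1h3b varied most between the 16 libraries, with SDs of log2 values of 1.58, 1.36 and 1.32. Hist1h1e (0.48), Hist1h1a (0.96) and Hist1h2bc (0.96) varied least.

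The summed level of all 69 genes spanned an order of magnitude between libraries. From low to high it was 9.84 CPM in b.del, 13.7 in ac.del, 16.5 in a.del, 16.8 in ab.del replicate 2, 24.3 in 100kdel, 24.4 in c.del replicate 2, 26.3 in c.del replicate 1 and 26.5 in 245kdel. Above these stood 4k.b.c at 36.3 CPM, 680kinv at 40.1, ab.del replicate 1 at 45.9, F121-9 replicate 1 at 47.4, abc.del replicate 1 at 52.6, F121-9 replicate 2 at 53.7, abc.del replicate 2 at 61.5 and bc.del at 99.9. The libraries of the second block filled the low end, and c.del replicate 1 was the lowest of the first block. Without Hist1h1a the order of the blocks was alike: 15.02 to 56.1 CPM (median 27.7) in the 8 libraries of the first block and 6.83 to 18.4 (median 11.05) in the 8 of the second.

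**Figure D1:**
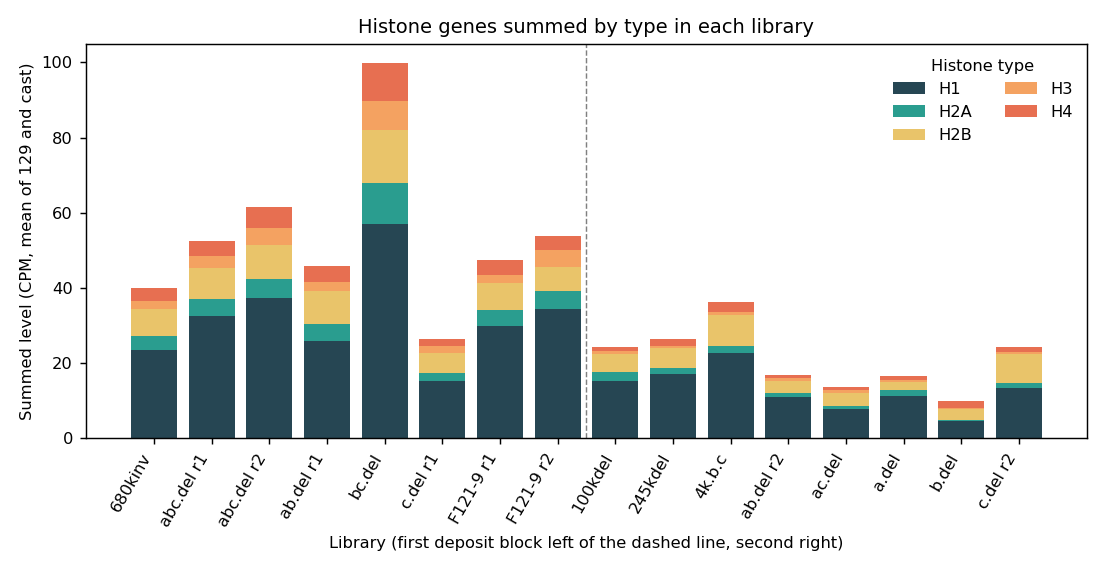
Summed level of the 69 histone genes in each of the 16 libraries (CPM, mean of both alleles, linear axis from 0), stacked by histone type, with the first deposit block left of the dashed line and the second right; r1 and r2 are replicates, and there is no error bar because each bar is 1 library. The tallest bar is bc.del at 99.9 CPM and the lowest is b.del at 9.84 CPM, and H1 is the largest part of every bar.

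The first question is whether histone transcription differed between edited and parental cells. No histone gene passed the test in any of the comparisons that the labels allow (limma on log2(CPM + 0.1), all 14094 genes tested, Benjamini-Hochberg adjusted p of 0.05). For abc.del against F121-9 the count was 0 of 20, with 0.220% of all genes called, and 0 histone genes had an unadjusted p under 0.05. For ab.del it was 0 of 20 (0.0497% of all genes called, 1 histone gene with an unadjusted p under 0.05), and for c.del 0 of 20 (0.0497%, 4 genes). Across these comparisons, in the same order, limma put 1445, 1099 and 1331 of all 14094 genes under an unadjusted p of 0.05. edgeR and DESeq2 on recovered reads also called 0 histone genes in each. Under 0.05 unadjusted were 0, 1 and 5 histone genes in edgeR and 0, 1 and 6 in DESeq2. Over all genes edgeR called 0 higher and 18 lower in abc.del, 0 and 11 in ab.del, and 0 and 8 in c.del. DESeq2 called 43 higher and 315 lower, 29 and 158, and 56 and 166. Unadjusted, 1480, 1155 and 1350 of all genes were under 0.05 in edgeR, and 1655, 1360 and 1551 in DESeq2. The histone counts do not show that levels were alike, since each group had 2 libraries.

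Hist1h1a stood at 21.3 and 25.2 CPM in F121-9, 24.0 and 25.2 in abc.del, 19.0 and 8.29 in ab.del, and 11.3 and 9.96 in c.del. Each c.del library was under the lower F121-9 value, as was each ab.del library, whereas both abc.del values fell inside the F121-9 range. The fitted difference on the log2(CPM + 0.1) scale was -1.12 ± 0.37 (SE) for c.del (adjusted p = 0.416) and -0.88 ± 0.37 for ab.del (adjusted p = 0.618). The next smallest p in c.del belonged to the linker histone gene Hist1h1b (-1.33, adjusted p = 0.484) and to Hist1h2ak (-1.61, adjusted p = 0.489), and in ab.del to Hist1h1e (-0.97, adjusted p = 0.637) and Hist1h1b (-1.01, adjusted p = 0.677). On the positive side the smallest p were those of Hist1h2be (1.19 in c.del, adjusted p = 0.548; 0.80 in abc.del, 0.668), Hist1h2bp (1.04 in abc.del, adjusted p = 0.581; 0.66 in c.del, 0.725) and Hist1h4a (1.25 in abc.del, adjusted p = 0.684). For Hist1h2be, whose long row reaches well beyond the gene's short row, both signs turned when the short row alone was used (-0.83 in c.del and -0.16 in abc.del). The median over the 20 genes was 0.23 for abc.del, -0.89 for ab.del and -1.26 for c.del, beside medians of 0.04, 0.08 and 0.09 over all genes tested. The 3 comparisons share the F121-9 libraries. ab.del and c.del each have 1 library in the second block, while F121-9 and abc.del have none. With block as a covariate the histone medians were 0.23, -0.41 and -0.61, and 0 histone genes were called in each comparison. Over all genes that fit called 193 higher and 478 lower for abc.del, 48 and 154 for ab.del, and 57 and 150 for c.del.

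The summed histone level was 50.6 ± 4.51 CPM (SD, n = 2) in F121-9, 57.0 ± 6.26 in abc.del, 31.4 ± 20.6 in ab.del and 25.4 ± 1.36 in c.del. The ab.del spread was the widest because its libraries, 1 in each block, stood at 45.9 and 16.8 CPM.

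Terms for each lettered site over the 12 lettered and parental libraries gave 0 of 20 histone genes for site a (0.0142% of all genes called), 0 for site b (0% called) and 0 for site c (0% called). One histone gene had an unadjusted p under 0.05 at each site. It was the H4 gene Hist1h4b for sites a (-1.09, adjusted p = 0.555) and b (1.08, adjusted p = 0.973) and the H2B gene Hist1h2be for site c (0.93, adjusted p = 1.00). With its short row alone Hist1h2be stood at 0.43 for site c (unadjusted p = 0.482 in limma). edgeR and DESeq2 called 0 histone genes at each site, with 1, 3 and 1 and with 2, 8 and 1 genes under 0.05 unadjusted. Of all 14094 genes tested, 1246, 717 and 459 were under 0.05 unadjusted in limma for sites a, b and c. The counts over all genes were 1099, 503 and 416 in edgeR and 1485, 806 and 587 in DESeq2. The histone medians were -0.27, 0.53 and 0.50 for sites a, b and c, against 0.10, -0.10 and -0.01 over all genes. These medians were not stable: with block as a covariate they were 0.19, 0.05 and 0.21, and without b.del they were -1.16, 1.54 and -0.06. Leaving out bc.del (0.04) or ac.del (0.13) also turned the sign for site a.

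In the 12 lettered and parental libraries, with site terms in the fit, 15 of 20 histone genes were lower in the second block (6.99% of all genes were called lower) and 1 was higher (17.6% called higher, 24.6% in either direction). The median difference was -1.98 on the log2 scale over the histone genes and 0.15 over all genes; over the alternative settings the histone median ranged from -2.53 to -0.60. The filter on low values bears on this count. Over these 12 libraries 7 histone genes (Hist1h2bj, Hist1h2bk, Hist1h2bl, Hist1h2bn, Hist1h3a, Hist1h3b and Hist1h3c) reached a mean of 0.2 CPM in the first block and not in the second, so they entered the test through the block where they were high, and all 7 were called lower. Of the 13 that reached it in both blocks, 8 were lower and 1 was higher. All 12 libraries kept apart, every library of the second block below every one of the first, for 11 histone genes, against 2.95% of all genes, and for 0 genes the other way, against 9.26%. Of the 7 genes named above, Hist1h2bj, Hist1h2bk, Hist1h3a, Hist1h3b and Hist1h3c are among these 11. What the blocks stand for is unknown, and no cause of the difference was tested. One library decides part of the count. Without b.del, the library with the fewest histone reads (205), 8 genes were lower (3.46% of all genes were called lower in that fit and 12.1% higher), namely Hist1h1a, Hist1h1c, Hist1h2ab, Hist1h2bb, Hist1h2bj, Hist1h2bk, Hist1h3b and Hist1h4b, and 0 were higher. In bulk cells a smaller share of cells in S phase and less histone RNA per cell cannot be told apart.

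Among the linker histone genes, 3 of the 4 tested were lower. Hist1h1a ranged from 11.3 to 43.8 CPM (median 24.0) in the 7 libraries of the first block, and stood at 8.29 in ab.del replicate 2, 5.29 in ac.del, 7.98 in a.del, 3.01 in b.del and 9.96 in c.del replicate 2. The blocks did not overlap, and the difference was -1.79 ± 0.35 (adjusted p = 0.00341). Hist1h1c, the gene of H1.2, ranged from 1.11 to 6.34 CPM (median 2.57) in the first block and stood at 0.331, 0.250, 0.588, 0 and 0.536 in the same 5 libraries of the second. It had the most negative difference of the histone genes (-3.04 ± 0.52, adjusted p = 0.00177; -4.16 to -1.47 over the alternatives), again with no overlap. Hist1h1b, the gene of H1.5, fell from a median of 2.90 CPM to 1.02 (-2.00, adjusted p = 0.00780). Hist1h1e, the gene of H1.4, did not pass: it ranged from 1.69 to 3.55 CPM in the first block and stood at 1.47, 1.57, 1.47, 1.39 and 1.81 in the second, so that the blocks overlapped (-0.80 ± 0.28, adjusted p = 0.0532). Under edgeR and DESeq2 Hist1h1e was called lower, at -1.03 (adjusted p = 0.0189) and -1.05 (adjusted p = 0.00173).

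**Figure D2:**
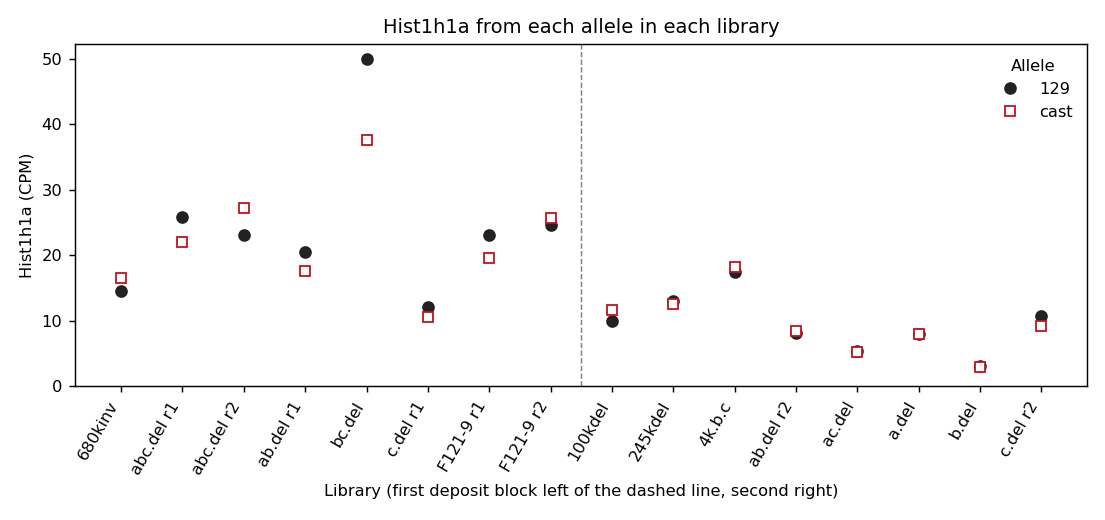
Level of Hist1h1a from the 129 copy (filled circles) and the cast copy (open squares) in each of the 16 libraries (CPM, linear axis from 0), with the first deposit block left of the dashed line and the second right; each point is 1 library. Both alleles are high or low together, from 3.01 CPM as the mean of both in b.del to 43.8 CPM in bc.del.

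Both tested H2A genes were lower in the second block. Hist1h2ab ranged from 1.09 to 3.54 CPM (median 2.49) in the first block and stood at 0.246 in ab.del replicate 2, 0.171 in ac.del, 0.733 in a.del, 0.416 in b.del and 0.527 in c.del replicate 2 (-2.29 ± 0.40, adjusted p = 0.00188). Hist1h2ak ranged from 0.640 to 6.69 CPM (median 1.96) and stood at 0.546, 0.600, 0.459, 0 and 0.567 in the same 5 libraries (-2.29 ± 0.61, adjusted p = 0.0160). Neither gene's blocks overlapped, but for Hist1h2ak the margin was small and its adjusted p without b.del was 0.182.

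Of the 8 tested H2B genes, 5 were lower, 1 was higher and 2 did not pass. Among the lower ones, Hist1h2bj, Hist1h2bk, Hist1h2bl and Hist1h2bn reached a mean of 0.2 CPM in the first block only. Hist1h2bb, the most abundant H2B gene per length, ranged from 1.53 to 7.94 CPM (median 2.97) in the first block and stood at 0.328, 0.554, 0.442, 0.638 and 0.395 in the second (-2.30 ± 0.35, adjusted p = 0.00104). Hist1h2bk fell from a median of 0.976 CPM to 0.118 (-2.54, adjusted p = 0.00205) and Hist1h2bj from 0.488 to 0.0245 (-1.97, adjusted p = 0.00573), both without overlap. Hist1h2bl (-2.01, adjusted p = 0.0368) and Hist1h2bn (-1.82, adjusted p = 0.0183) overlapped between blocks, and the Hist1h2bl call was lost in 15 of its 23 alternative settings. Hist1h2bn is the divergent neighbour of Hist1h2ak whose shared upstream stretch is printed above, and both were lower.

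All 3 tested H3 genes were lower, but all 3 reached a mean of 0.2 CPM in the first block only, as given above. Hist1h3b ranged from 0.951 to 3.62 CPM (median 1.34) in the first block and stood at 0.284 in ab.del replicate 2, 0.194 in ac.del, 0.156 in a.del, 0.182 in b.del and 0.179 in c.del replicate 2. Its highest value in the second block was thus below its lowest in the first (-2.50 ± 0.38, adjusted p = 0.00103, the smallest among the histone genes). Hist1h3a fell from a median of 0.698 CPM to 0.136 (-2.01, adjusted p = 0.00627) and Hist1h3c from 0.849 to 0.231 (-1.85, adjusted p = 0.0152), without overlap.

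Of the 3 tested H4 genes, 2 were lower. Hist1h4a fell from a median of 1.39 CPM to 0.301 (-1.98, adjusted p = 0.00890). Hist1h4b ranged from 0.925 to 3.65 CPM (median 1.86) in the first block and stood at 0.376, 0.387, 0.412, 1.25 and 0.790 in the second (-1.34 ± 0.34, adjusted p = 0.0126), overlapping only through b.del. Hist1h4j, with medians of 0.830 and 0.150 CPM, did not pass (-1.33, adjusted p = 0.0900).

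**Figure D3:**
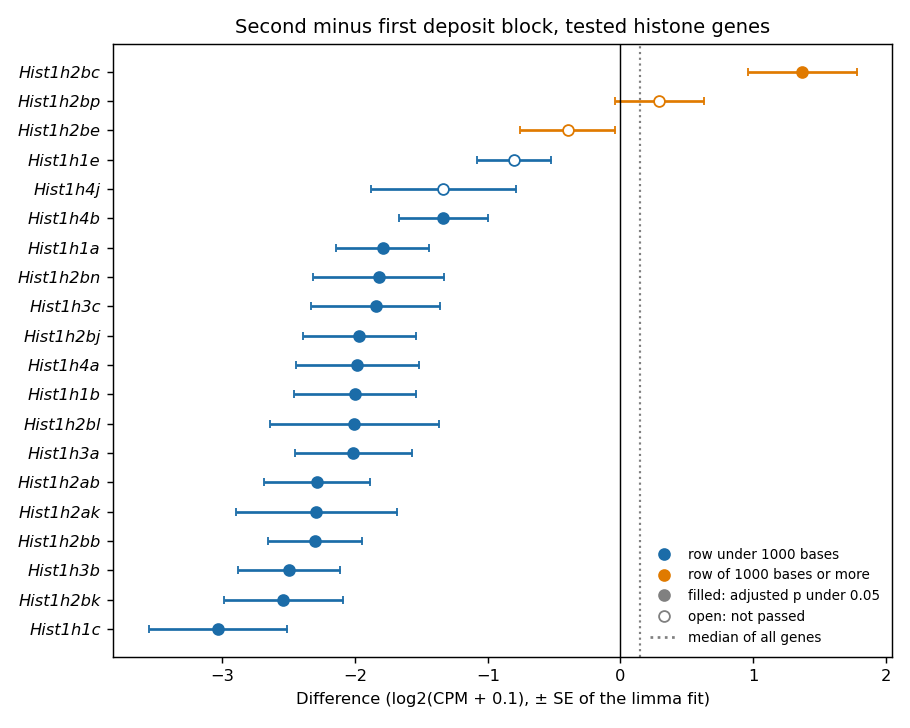
Difference between the deposit blocks (second minus first) for the 20 tested histone genes, as log2(CPM + 0.1) ± SE of the limma fit over 12 libraries, with filled points for an adjusted p under 0.05 and the dotted line at the median of all genes. The 17 genes with rows under 1000 bases (blue) lie at -0.80 or lower, while the 3 genes with longer rows (orange) lie at -0.40, 0.29 and 1.37. Of the blue points, 7 are genes that reached a mean of 0.2 CPM in the first block only.

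The tested genes split by the length of their rows. Of the 17 whose rows span 423 to 794 bases, 15 were lower and 0 higher. Of these 15, 7 had reached a mean of 0.2 CPM in the first block only. The other 3 tested genes were H2B genes with a longer row: Hist1h2bp (1726 bases), Hist1h2bc (8282 bases) and Hist1h2be (37455 bases). Other short genes did not share the direction: of 250 other genes spanning under 1000 bases, 8 were lower and 42 higher, with a median of 0.27. Of 443 other genes with 1 exon in every GENCODE transcript, 12 were lower and 92 higher, with a median of 0.38. Each of these classes was read from the same fit and the difference between classes was not tested.

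For these 3 genes the table also held a short row, which in Hist1h2be and Hist1h2bp ends just behind the stem-loop match, so its reads could be set apart from those in the rest of the long row. The long row runs on downstream of the short row in all 3 genes, and in Hist1h2be it also reaches upstream. The short Hist1h2bc row (chr13:23684199-23684667) had a median of 0.364 CPM in the 7 libraries of the first block and 0.0735 in the 5 of the second. The rest of its long row, up to position 23692480, went from a median of 0.345 CPM (range 0.130 to 0.939) to 1.52 (range 0.615 to 4.92). The 2 parts of this row therefore moved in opposite directions in their medians, and the call of Hist1h2bc as higher in the second block (1.37 ± 0.41, adjusted p = 0.0286) rests on reads outside the short row. With the short row alone it stood at -0.90 (adjusted p = 0.180).

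Hist1h2be showed a like split. Its short row (chr13:23585526-23585970) had a median of 0.345 CPM in the first block and 0 in the second, and the rest of the long row medians of 0.252 and 0.330. The long row gave -0.40 (adjusted p = 0.447), while the short row alone was called lower at -1.88 ± 0.40 (adjusted p = 0.00479). In the lettered and parental libraries this short row had at least 0.234 CPM in the first block and at most 0.0658 in the second. It thus reached the filter only through the block where it was high. Hist1h2bp had medians of 0.144 and 0.120 CPM in its short row and 0.0778 and 0.268 in the rest, with 0.29 (adjusted p = 0.557) for the long row. With the shortest row used for every gene, a choice added after the values were seen, 16 of the 19 histone genes then tested were lower (6.95% of all genes) and 0 higher (17.7%). Genes that reached the filter only through the first block are part of this count too.

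**Figure D4:**
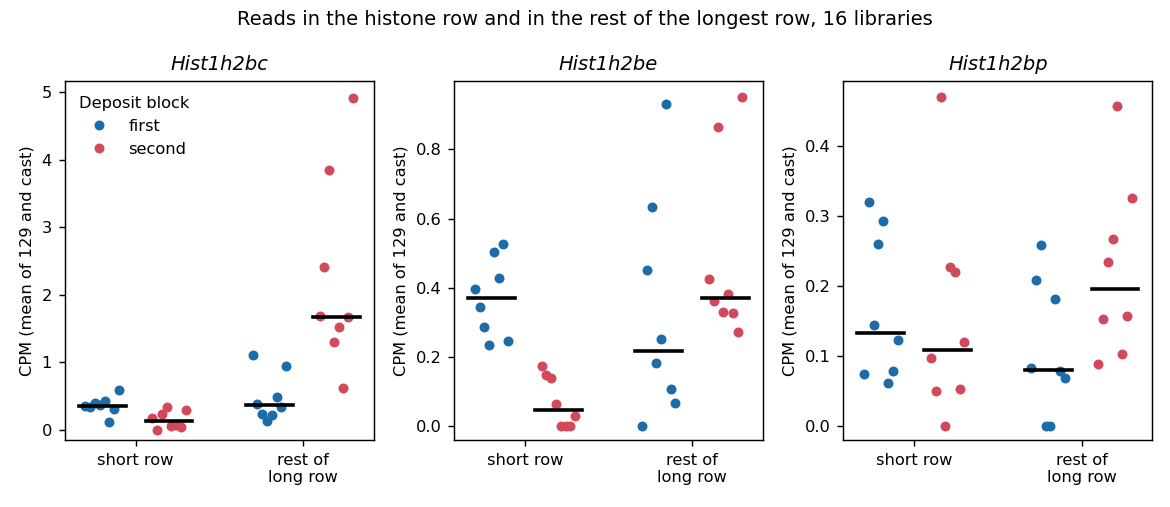
Level (CPM, mean of both alleles, linear axes with separate scales) in the short row and in the rest of the longest row for Hist1h2bc, Hist1h2be and Hist1h2bp, with 1 point per library, 8 in each deposit block, and bars at the medians. Second-block points of Hist1h2bc reach 4.92 CPM in the rest of the long row, whereas its short row stays at 0.583 CPM or less in every library.

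The same-label pairs that cross the blocks differed in size. For ab.del, 18 of 20 histone genes were lower in the library of the second block. Of these, 14 were lower by a factor of at least 2 on the log2(CPM + 0.1) scale (5.39% of all genes). The median was -1.77, beside 0.19 over all genes. For c.del, 15 of 20 were lower, 6 of them by that factor (3.33% of all genes), with a median of -0.50, beside 0.38 over all genes. Shares of all genes lower by any amount are not given here. Hist1h1a went from 19.0 to 8.29 CPM in ab.del and from 11.3 to 9.96 in c.del. The c.del library of the first block was itself low, so the pairs do not give 1 common size. With 1 library on each side there is no test.

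The 4 libraries outside the lettered series followed the blocks only in part. 680kinv, in the first block, had a summed level of 40.1 CPM, and 100kdel, 245kdel and 4k.b.c, in the second, had 24.3, 26.5 and 36.3. Hist1h1a stood at 15.6, 10.8, 12.8 and 17.9 CPM in these 4 libraries, so that 4k.b.c was above 680kinv. With all 16 libraries and block alone in the fit, another choice added later, 16 histone genes were lower (7.17% of all genes) and 1 was higher (24.6%).

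Other genes of histone supply and of the cell cycle were read from the same fit, in which 17.6% of all genes were higher and 6.99% lower. The list of genes for histone transcription and 3′ end processing had 28 of 33 members tested, of which 5 were higher and 1 lower in the second block, with a median of 0.17, close to the shares and the median (0.15) of all genes. The higher ones included Lsm11 (0.74, adjusted p = 0.00274), a subunit of the U7 particle that cuts histone transcripts, Ncbp2 (0.86, adjusted p = 0.00347), a cap-binding subunit, and Ccne2 (0.86, adjusted p = 0.0205), a cyclin of the entry into S phase. Wdr33, a subunit of the polyadenylation complex, was lower (-0.53, adjusted p = 0.00118). Of the 12 tested variant histone genes, which are transcribed outside S phase too, 3 were higher and 0 lower: H2afz (1.37, adjusted p = 0.00170), H2afj (1.76, adjusted p = 0.00918) and H3f3a (0.37, adjusted p = 0.0183). H2afj had 0.201 CPM at most in the first block and 0.228 to 0.567 in the second, so it too reached the filter only through the block where it was high.

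Of 23 histone chaperone genes 5 were higher and 1 was lower (Rbbp4, -0.32, adjusted p = 0.0233), and of 37 S phase genes 12 were higher, among them the sliding clamp gene Pcna (1.09, adjusted p = 0.00232) and the helicase subunit gene Mcm7 (0.90, adjusted p = 0.00657), and 3 were lower (Pola1, Rfc1 and Rpa1). Of 23 genes of G2 and mitosis 5 were higher and 2 lower, and of 12 pluripotency markers 6 were higher and 1 lower. Of 7 tested primitive endoderm markers 2 were higher and 0 lower (median 0.48), and of 6 tested primed epiblast markers 1 was higher and 0 lower (median 0.51). These shares stand beside the 17.6% higher and 6.99% lower over all genes, and no list was tested against them. Several of these splits depend on the scaling. With libraries centred on their median, the histone count was 17 lower and 1 higher, but the processing list had 3 higher and 3 lower, the variant histones 2 and 1, the chaperones 1 and 3, the primitive endoderm markers 0 and 0, the S phase list 7 and 3, and the G2 and mitosis list 1 and 3. The pluripotency markers had 5 higher and 1 lower, and the primed epiblast markers 1 and 0, under this centring. With it the median of all genes moved from 0.15 to -0.13, and the called genes from 2476 higher and 985 lower to 1080 and 2440. The part of these lists in the histone difference was not tested.

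Both alleles can be compared within each library. Of the 20 histone genes 9 were higher on 129 and 3 higher on cast over the 16 libraries (45.2% of all genes were called, 23.8% on 129 and 21.4% on cast). Allele differences were thus common among all genes, and nothing particular to histone genes was read from the count. Hist1h1a did not pass, with 16.8 ± 11.4 CPM (SD, n = 16) on 129 and 15.8 ± 9.16 on cast (0.05 ± 0.05, adjusted p = 0.418); its cast share was 46.6% of 8910 reads (95% Wilson interval 45.5% to 47.6%, counting error only).

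With the longest row of each gene, the largest difference toward 129 was in Hist1h3c, with 0.934 ± 1.11 CPM on 129 and 0.193 ± 0.197 on cast. It was higher on 129 in 14 of 16 libraries (1.50 ± 0.24, adjusted p = 7.07e-05). Hist1h2be (1.28, adjusted p = 0.00648), Hist1h2bb (1.23, adjusted p = 0.00489), Hist1h2bn (1.22, adjusted p = 0.0157) and Hist1h2bp (1.00, adjusted p = 0.0292) followed. The Hist1h2bp call was lost in 6 of 21 alternative settings, and the calls of Hist1h2bc (0.76, adjusted p = 0.0464) and Hist1h2ab (0.68, adjusted p = 0.0381) toward 129 in 13 and 10 of 23. With the short row alone the differences of Hist1h2bc (2.34, adjusted p = 7.90e-07) and Hist1h2be (1.89, adjusted p = 7.93e-05) were larger than that of Hist1h3c. These short rows held 0 and 3 cast reads, so the sizes depend on the 0.1 CPM added, and no ranking against Hist1h3c is drawn. Toward cast stood Hist1h4a (-0.83, adjusted p = 0.0130), Hist1h1e (-0.77, adjusted p = 0.000476) and Hist1h3a (-0.77, adjusted p = 0.0147), with cast higher in 13, 15 and 13 of 16 libraries. Neighbours could point to different alleles: Hist1h4b was higher on 129 (0.81, adjusted p = 0.00670), and Hist1h4a, the next histone gene along the chromosome, was higher on cast.

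In the short H2B rows most reads were assigned to 129: 152 and 0 reads (129 and cast) for Hist1h2bc, 130 and 3 for Hist1h2be, and 80 and 13 for Hist1h2bp. The rest of the long rows held 325 and 386, 119 and 115, and 65 and 43 reads. The file headers mark 1 column of each library as reads that support the reference, taken here as 129. Whether alignment or near-identical copies set these shares was not tested. Summed over Hist1, the cast share of reads was 37.6% to 51.7% per library (median 46.3%), beside medians of 46.9% to 48.7% over other genes of chromosome 13. The lowest shares were those of b.del (37.6% of 205 reads, 95% Wilson interval 31.2% to 44.4%), bc.del (37.9%) and c.del replicate 1 (38.1%).

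**Figure D5:**
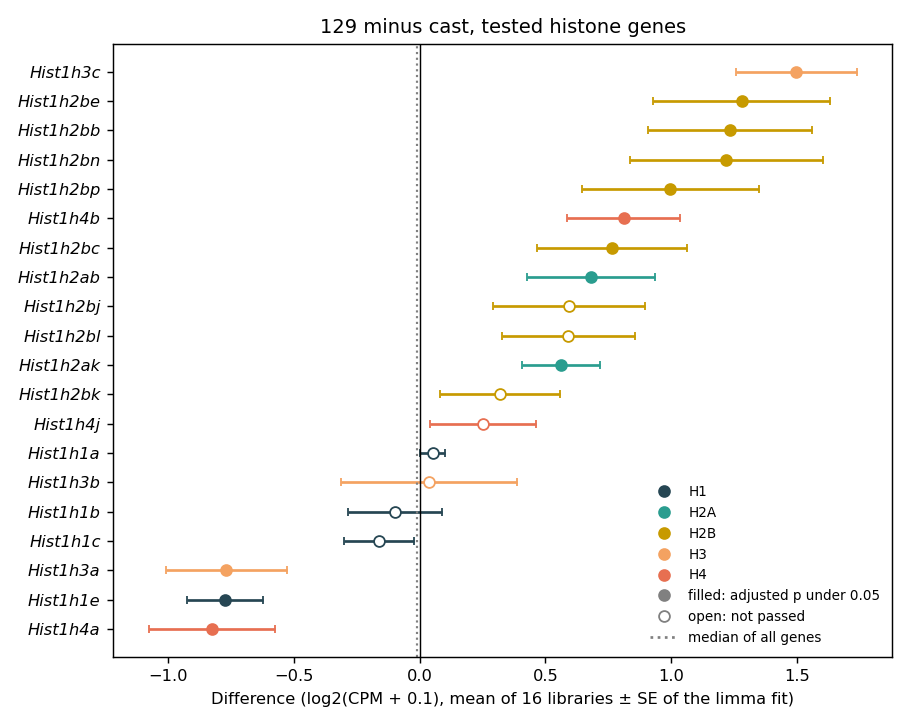
Difference between alleles (129 minus cast) for the 20 tested histone genes, as the mean over 16 libraries of the difference of log2(CPM + 0.1) ± SE of the limma fit, coloured by histone type, with filled points for an adjusted p under 0.05 and the dotted line at the median of all genes. Filled points lie on both sides, from -0.83 for Hist1h4a to 1.50 for Hist1h3c, and Hist1h1a lies at 0.05.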

How the data were processed

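Per the labels' protocols, strand-specific libraries were made from 300 ng of captured RNA and sequenced as 100 bp single-end reads. The submitters' processing notes name mm10, Bowtie2 and bedtools without versions. Reads had been filtered, per the file headers, at a mapping quality of 10 and then split by SNPs into reference (129) and variant (cast). The values deposited by the authors are CPM: each of 32 columns sums to 1000000 over 42497 rows. The design assumed an unnamed unit, and no length division was found. Dividing by a column's smallest value gave whole reads within 0.01 for 100% of values. On these reads edgeR 4.0.16 and DESeq2 1.42.0 were run as alternatives.

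The main test was limma 3.58.1 (R 4.3.3; two-sided, eBayes with trend, Benjamini-Hochberg adjustment over all genes, threshold 0.05) on log2(CPM + 0.1) for the 14094 genes with a mean of at least 0.2 CPM; 6 segments drawn by the authors were left out. It was run on groups with 2 libraries, on site terms, on deposit block and on 129 minus cast, and tested on simulated data. Named genes were those passing (up to 10 per direction), otherwise those with the smallest p, and extremes of level and variation. Alternatives were other pseudocounts, filters, centring, single alleles, block as covariate and leaving out libraries. Members and lists were chosen with earlier results of these data known.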

Additional observations from a re-analysis of the deposited data

Results flagged for a closer look

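In 42 sets of 8 libraries (each tested histone gene and the summed level, within each deposit block), 7 had 1 library far above the other 7. In 5 of them it was bc.del, in the first block: Hist1h1a at 43.8 CPM (next 25.2), Hist1h2bb at 7.94 (next 4.11), Hist1h2ak at 6.69 (next 2.31), Hist1h3c at 2.58 (next 1.14) and Hist1h4j at 2.57 (next 0.939). Without bc.del the block count was again 15 lower and 1 higher, beside 1132 lower and 2647 higher among all 14094 genes in that fit. In the other 2 it was 4k.b.c, in the second block: Hist1h2bn at 0.377 CPM (next 0.133) and Hist1h2bj at 0.371 (next 0.139), on 8 reads each. For 1 set of normally spread values chance gives about 1 in 20. The 42 sets hold CPM values without a log scale and share the same libraries, so that rate does not hold for their count.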

How the results depend on the processing

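The count of histone genes called stayed at 0 under every alternative run in the 3 comparisons with F121-9 and the 3 site terms. For the deposit block, 22 of 24 alternatives kept the count of 16, in either direction, within 1.5 times. With a mean of at least 1 CPM it was 10 of the 10 genes left to test, Hist1h2bc as higher included. Leaving out 1 library gave 8 (without b.del) to 18. For 129 against cast, a mean of at least 1 CPM gave 6 of 10 genes, and leaving out 1 library gave 9 to 12. The main fits called 24.6% of all genes by block and 45.2% by allele. Shares of all genes with a mean of at least 1 CPM are not given here. The mean cast share of Hist1 was 45.1% from summed reads and 38.9% as the median of the genes' own shares. By block, Hist1h2bp turned to -0.69 on 129 values alone, Hist1h2be to 0.045 on cast values alone and Hist1h2bc to -0.90 with the shortest row; on the short row Hist1h2be turned in abc.del and c.del too. None of these passed, and the cause of the changes on single alleles was not tested. Apart from the alleles, which were compared within each library, no paired analysis was possible because only F121-9 carries replicate numbers in the labels. Depth limits the 16 genes with 2 to 110 reads, which were not tested.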
